A study of Caenorhabditis elegans with 6 samples.

Results

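Superoxide dismutases, catalases and peroxiredoxins form a relay that clears reactive oxygen. Superoxide dismutases turn superoxide, a by-product of respiration, into hydrogen peroxide and oxygen. Catalases split hydrogen peroxide into water and oxygen, and peroxiredoxins reduce it with electrons passed on by thioredoxin. In Caenorhabditis elegans, a free-living nematode, these enzymes are divided among the cytosol, mitochondria, peroxisomes and the outside of the cell, and sod-3 is widely used as a reporter of insulin signalling through the FOXO factor DAF-16.

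The 9 genes described here are sod-1 to sod-5, ctl-1 to ctl-3 and prdx-2, out of 46589 gene identifiers in the tables. They were picked by name, with earlier results of these data known. Of the 9 sequence names supplied for them, 8 were in the tables. The one supplied for sod-3 was not, and sod-3 was read from C08A9.1, the sequence name that RefSeq gives it. Whole young adult wild-type hermaphrodites fed 5 mM tryptophan from the L4 stage, the last larval stage, for 36 h at 20 °C (3 libraries) were compared with control hermaphrodites of the same genotype, tissue and temperature (3 libraries), whose titles place them 36 h after L4. The comparison asks whether the transcripts of these enzymes differ in level when tryptophan is fed. Nothing in the labels says that the replicates came from separate cultures, so the tests speak only to the spread among these 6 libraries, and that spread may be technical. RNA came from whole animals, so a loss of cells of one type and less RNA per cell cannot be told apart.

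The unit is FPKM, fragments per kilobase of transcript, scaled to sequencing depth. Differences were tested with limma on log2(FPKM + 1), which understates the change of low genes, over the 13511 genes with a mean of at least 1 FPKM. Of the 9 members 8 passed that minimum, and sod-5 (mean 0.961 FPKM) did not.

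Tryptophan library 1 and control library 1 stood apart from the rest. Across tested genes their log2 values correlated at 0.578, against 0.960 to 0.980 among the other 4 libraries. Tryptophan library 1 held the highest value of the 6 for 36.3% of tested genes and the lowest for 34.5%, and control library 1 for 37.1% and 34.4%. In each of the other 4 libraries those shares lay between 2.14% and 13.98%. Levels in tryptophan library 1 also moved with transcript length. After each library was scaled to the same sum (TPM), its median ratio to the other libraries was 1.999 for transcripts under 600 bp, 1.17 for 600 to 1099 bp, 0.554 for 1500 to 1699 bp and 0.158 for those of 4000 bp or more. The same ratio ran the other way in control library 1, at 0.559 under 600 bp, 0.672 for 600 to 1099 bp, 0.863 for 1500 to 1699 bp and 1.156 for 2500 to 3999 bp. Sperm genes were highest in tryptophan library 1 and yolk genes in control library 1. The summed level of 30 sperm genes was 5469 to 20920 FPKM in tryptophan and 492.0 to 8356 FPKM in control libraries, and that of the 6 yolk genes was 406.1 to 3951 FPKM in tryptophan and 945.7 to 19564 FPKM in control libraries. None of these genes was at 0 in all libraries. Of 10 markers of muscle, gut, neurons, epidermis and germline, all were detected in every library and 8 had their lowest value in tryptophan library 1. What library, stage or length contributes to the values below was not tested, and results are given with and without library 1 of each group.

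The enzymes differed widely in level, per length of transcript. prdx-2, at a mean of 852.3 FPKM over the 6 libraries, was above 99.2% of protein-coding genes. sod-1 followed at 272.1 FPKM and sod-2 at 135.3 FPKM, and the ranges of these 3 genes did not overlap over the 6 libraries. ctl-2, at 33.7 FPKM, lay above ctl-3 in all 6 libraries although their ranges overlapped. ctl-3 (12.64 FPKM), sod-4 (11.9 FPKM) and ctl-1 (9.16 FPKM) overlapped, with ctl-3 above sod-4 and sod-4 above ctl-1 in 4 of the 6 libraries, so their order is not set by these data. sod-3 (4.57 FPKM) and sod-5 (0.961 FPKM) came last, sod-3 being the higher of the pair in every library.

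**Figure D1:**
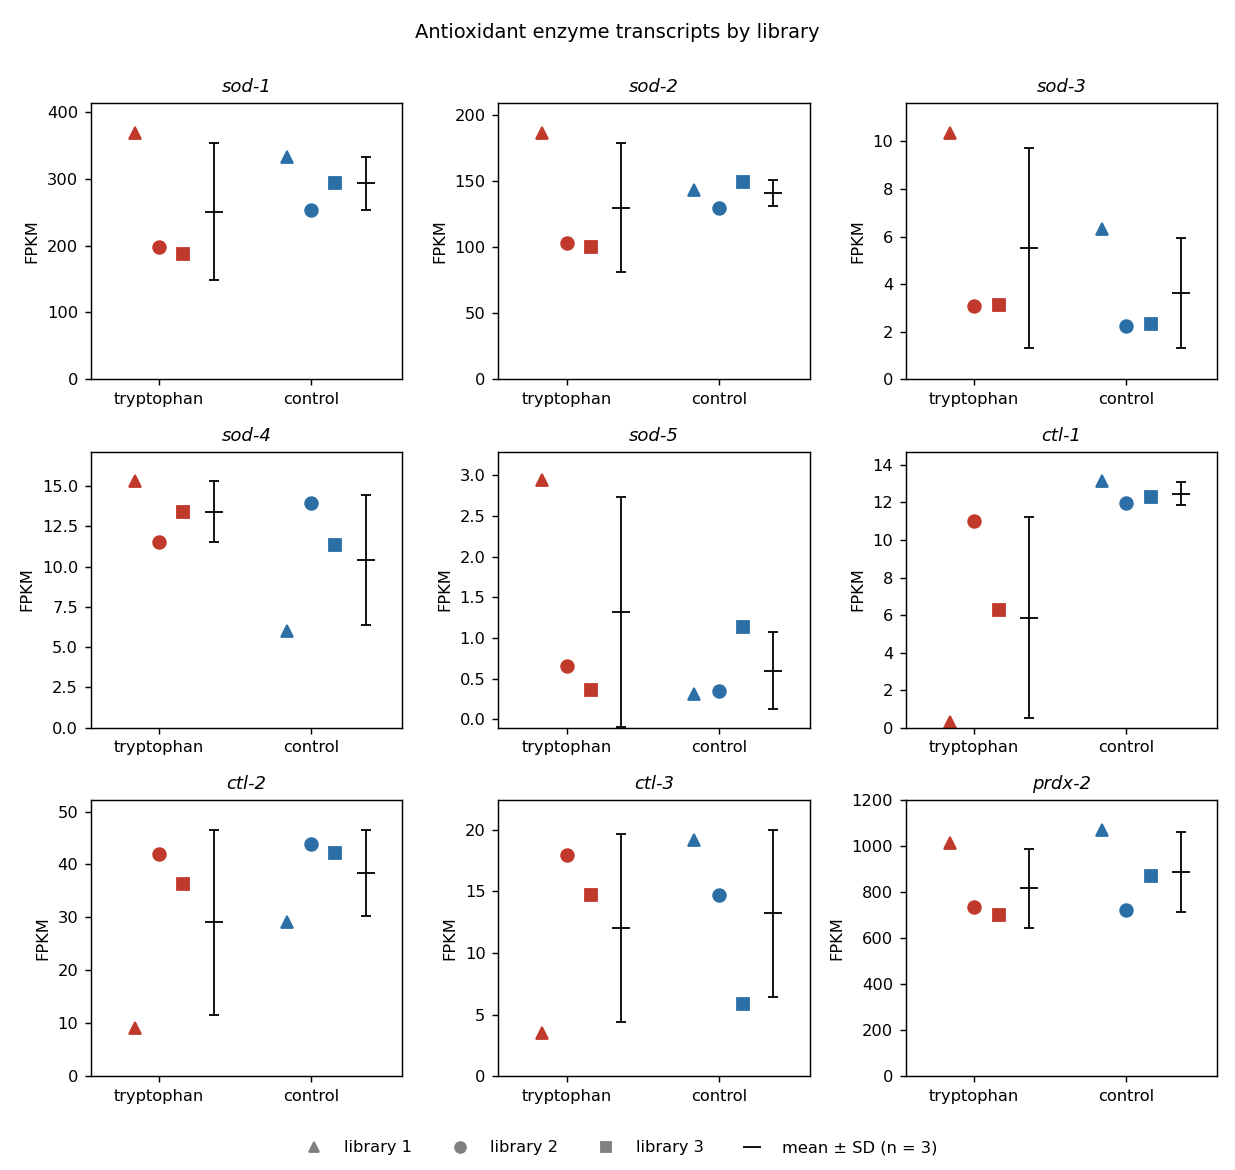
Level (FPKM, linear axis) of each of the 9 genes in each tryptophan (red, left) and control (blue, right) library, with triangles for library 1, circles for library 2 and squares for library 3, and the mean ± SD of 3 libraries in black. Triangles lie highest in the tryptophan group for all 5 sod genes and prdx-2, and lowest for the 3 ctl genes.

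None of the members passed the test of tryptophan against control. With limma over all 6 libraries 0 of the 8 tested members had an adjusted p under 0.05, as did 0% of the 13511 genes tested. At an unadjusted p under 0.05 the counts were 0 of 8 members and 158 genes, 1.17% of those tested. Tryptophan over control was negative on the log2 scale for 6 members and positive for 2, sod-3 and sod-4, as it was positive for 47.7% of all genes tested. The members had a median of -0.21 against -0.03 over all genes tested. Adjusted p-values of the 8 members ran from 0.802 to 0.926 in limma.

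sod-1 (C15F1.7, chromosome II, 6972706 to 6973887, minus strand of WBcel235) encodes the main cytosolic copper and zinc superoxide dismutase. It had 368.9, 197.4 and 186.7 FPKM in tryptophan libraries 1 to 3, against 332.9, 253.0 and 293.6 FPKM in control libraries 1 to 3. The groups overlapped only through tryptophan library 1, the highest of the 6. The means were 251.0 ± 102.2 FPKM with tryptophan and 293.2 ± 39.96 FPKM in controls (SD, n = 3 each), and the log2 fold change was -0.29 (SE 0.39, 95% interval -1.199 to 0.63, limma adjusted p = 0.831).

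sod-2 (F10D11.1, chromosome I, 8434550 to 8435807, plus strand) encodes the main mitochondrial manganese superoxide dismutase and followed the same pattern. Its values were 186.5, 103.5 and 99.9 FPKM in tryptophan libraries 1 to 3 and 143.2, 129.8 and 149.2 FPKM in control libraries 1 to 3. Again tryptophan library 1 was the highest and the other two tryptophan libraries the lowest. On the log2 scale the fold change was -0.17 (SE 0.38, interval -1.06 to 0.71, limma adjusted p = 0.895). sod-2 lies inside the annotated span of dpt-1 on the opposite strand, which had 52.6 to 58.6 FPKM with tryptophan and 59.2 to 87.8 FPKM in controls. Whether the counting used strand is not given in the sources used here. Without strand, reads from any exon sequence that the pair shares could not be told apart. Overlaps here and below were read from gene spans, and exons were not compared.

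prdx-2 (F09E5.15, chromosome II, 5378195 to 5379631, plus strand), a peroxiredoxin of the typical class that removes hydrogen peroxide, had 1012, 736.7 and 700.0 FPKM in tryptophan libraries 1 to 3. The control libraries had 1072, 723.6 and 868.7 FPKM. The groups overlapped throughout, and library 1 was the highest in each. Its log2 fold change was -0.12 (SE 0.34, interval -0.92 to 0.68, limma adjusted p = 0.921). On the log2 scale the SD of prdx-2 over the 6 libraries was 0.26, smaller than that of all but 7.36% of tested genes, with a median of 0.64 over those genes.

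The deposited FPKM values sum to different totals, from 608336 to 1115616 in tryptophan libraries and from 733462 to 1013590 in controls, with both library 1s at the top. Rescaling to TPM narrowed the spread of these abundant genes. sod-1 then had 330.6, 275.8 and 306.9 TPM with tryptophan and 328.4, 344.9 and 355.9 TPM in controls, so that tryptophan library 1 was no longer the highest of the 6. sod-2 had 167.2, 144.5 and 164.2 TPM with tryptophan and 141.3, 177.0 and 180.9 TPM in controls. prdx-2 averaged 1029 ± 121.8 TPM with tryptophan and 1033 ± 39.96 TPM in controls (SD, n = 3 each). On the log2 scale the fold change of prdx-2 was -0.011 on TPM and turned positive under quantile normalization (0.086). On TPM the median log2 fold change of all tested genes was 0.07, against -0.03 as deposited.

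**Figure D2:**
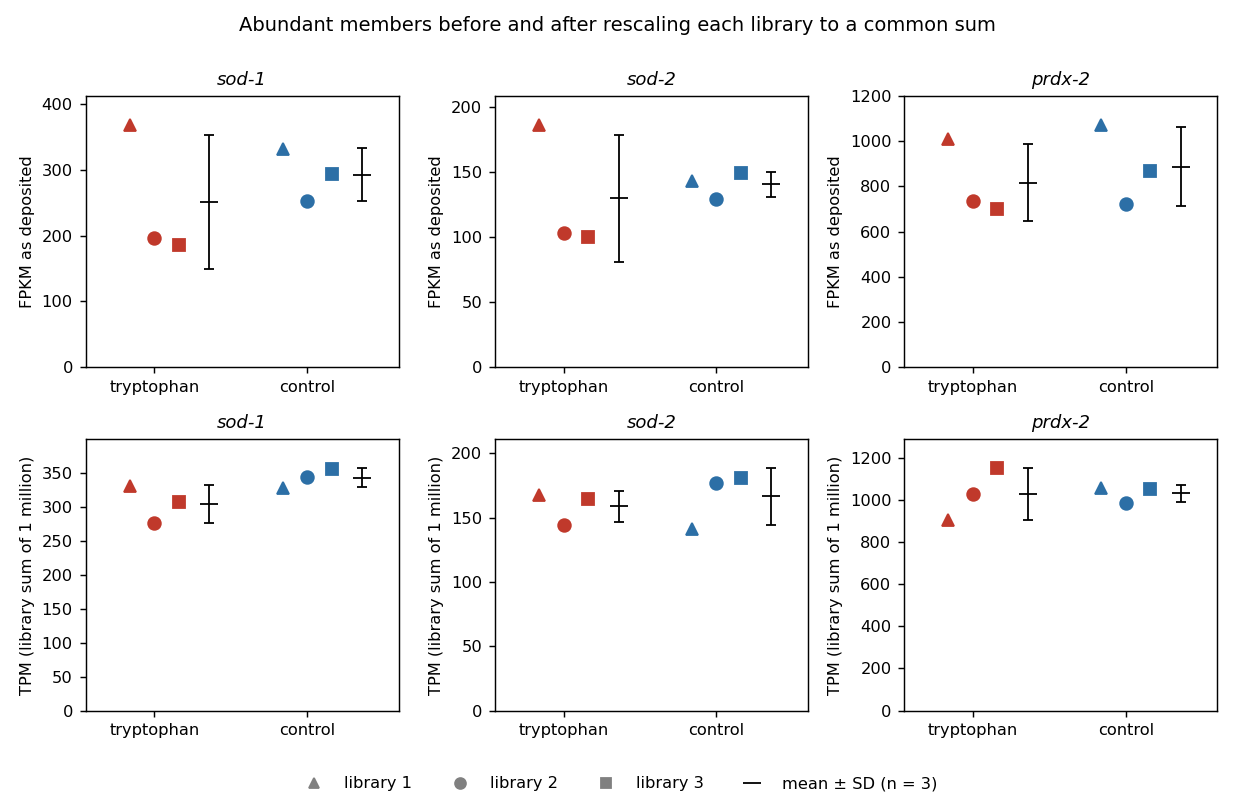
Levels of sod-1, sod-2 and prdx-2 as deposited (FPKM, top) and after each library was rescaled to the same sum (TPM, bottom), for tryptophan (red, left) and control (blue, right) libraries, with the mean ± SD of 3 libraries. The gap between library 1 (triangles) and the rest of the tryptophan group is smaller on TPM, where sod-1 spans 275.8 to 355.9 over the 6 libraries.

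sod-3 and sod-4, the inducible mitochondrial and the extracellular enzyme, had higher means with tryptophan, within the spread of the libraries. sod-3 (C08A9.1, chromosome X, 17092753 to 17094306, plus strand) had 10.4, 3.06 and 3.10 FPKM in tryptophan libraries 1 to 3, against 6.30, 2.23 and 2.34 FPKM in control libraries 1 to 3. Library 1 was the highest in each group, so the groups overlapped. For sod-3 the fold change on the log2 scale came to 0.42 (SE 0.58, interval -0.93 to 1.78, limma adjusted p = 0.831), and to -0.070 without tryptophan library 1.

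sod-4 (F55H2.1, chromosome III, 9496884 to 9500375, minus strand) had 15.3, 11.5 and 13.4 FPKM in tryptophan libraries 1 to 3 and 6.02, 13.9 and 11.3 FPKM in control libraries 1 to 3. Control library 1 alone was low, and the other 5 libraries lay within 11.3 to 15.3 FPKM. For sod-4 the log2 fold change was 0.39 (SE 0.45, interval -0.65 to 1.44, limma adjusted p = 0.810), and without control library 1 it was 0.077. Both genes touch annotated genes on the opposite strand, which for sod-4 is ctr-9 (22.1 FPKM on average) and for sod-3 are lido-1 (2.24 FPKM) and C08A9.3, at most 0.0401 FPKM.

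sod-5 (ZK430.3, chromosome II, 4417633 to 4419130, plus strand) encodes the minor cytosolic copper and zinc enzyme. It had 2.94, 0.660 and 0.363 FPKM in tryptophan libraries 1 to 3, against 0.307, 0.353 and 1.14 FPKM in control libraries 1 to 3. Tryptophan library 1 was again the highest and the other 5 were intermixed. The steps between low values put the lowest of these, 0.307 FPKM, at about 3.17 counted units (reads or read pairs) and the highest at about 36.3. Without a minimum level its log2 fold change was 0.41 (limma adjusted p = 0.800).

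The makeup of the superoxide dismutase pool does not depend on scaling between libraries, and sod-1 and sod-2 made up most of it in every library. sod-1 made up 63.2%, 62.4% and 61.5% of the summed FPKM of the 5 genes in tryptophan libraries 1 to 3, against 68.1%, 63.4% and 64.2% in control libraries 1 to 3. Each tryptophan library was below each control library, though 63.2% and 63.4% are close. This was not tested, and no background over all genes was worked out for such shares. sod-2 made up 31.9% to 32.9% with tryptophan and 29.3% to 32.6% in controls. sod-3 made up 1.77%, 0.969% and 1.02% of the pool with tryptophan and 1.29%, 0.559% and 0.511% in controls, and sod-4 averaged 3.55% ± 0.896 with tryptophan and 2.40% ± 1.13 in controls (SD, n = 3 each). There were 17.997, 33.8 and 32.2 FPKM of sod-2 for each FPKM of sod-3 with tryptophan and 22.7, 58.2 and 63.8 in controls, so the mitochondrial pair overlapped between groups through control library 1.

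Each of the 3 catalases was lowest of all in tryptophan library 1, and none passed the test. They form a tandem cluster of 11224 bp on the minus strand of chromosome II, with 1540 bp between ctl-2 and ctl-1 and 1537 bp between ctl-1 and ctl-3. The start of the ctl-2 span (14299556) overlaps the end of that of Y54G11A.7 (14299620) on the opposite strand (8.22 FPKM on average). Without strand, reads from any exon sequence shared there could not be told apart either. As close paralogs the catalases may share reads, and how the counting divided those is uncertain.

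ctl-1 (Y54G11A.6, 14303568 to 14306260) encodes the cytosolic catalase. It had 0.295, 10.99 and 6.27 FPKM in tryptophan libraries 1 to 3, against 13.1, 11.98 and 12.3 FPKM in control libraries 1 to 3. Each tryptophan library was below each control library, as for 4.32% of all tested genes in that direction, but on TPM the groups overlapped (0.264, 15.3 and 10.3 TPM with tryptophan, 12.96, 16.3 and 14.9 TPM in controls). On TPM 2.54% of all tested genes were lower without overlap and 4.63% higher, and 0 members were either. The means were 5.85 ± 5.36 FPKM with tryptophan and 12.5 ± 0.600 FPKM in controls (SD, n = 3 each). Over all 6 libraries the log2 fold change of ctl-1 was -1.48 (SE 0.81, interval -3.37 to 0.41, limma adjusted p = 0.802), and -0.53 without tryptophan library 1.

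ctl-2 (Y54G11A.5, 14299556 to 14302027) encodes the peroxisomal catalase and was the most abundant of the 3 in every library. Its values were 9.09, 41.9 and 36.2 FPKM in tryptophan libraries 1 to 3 and 29.0, 43.8 and 42.2 FPKM in control libraries 1 to 3. Library 1 was the lowest in each group, and tryptophan library 1 the lowest of all. For ctl-2 the log2 fold change was -0.62 (SE 0.61, interval -2.05 to 0.82, limma adjusted p = 0.802), and 0.045 without tryptophan library 1.

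ctl-3 (Y54G11A.13, 14307798 to 14310779), described in this worm from pharyngeal muscle and neurons, had 3.46, 17.9 and 14.7 FPKM in tryptophan libraries 1 to 3. Control libraries 1 to 3 had 19.2, 14.7 and 5.84 FPKM, so each group held 1 low library and the groups overlapped. For ctl-3 the log2 fold change was -0.24 (SE 0.70, interval -1.88 to 1.403, limma adjusted p = 0.926), 0.41 without tryptophan library 1 and 0.082 without control library 1.

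The low level in tryptophan library 1 was more marked for these genes than for most others of their length. The ratio of tryptophan library 1 to the median of the other 5, on TPM, was 0.0177 for ctl-1, 0.139 for ctl-2 and 0.154 for ctl-3. Among the 1033 tested protein-coding genes with transcripts of 1500 to 1699 bp, which all 3 catalases have, 0.387%, 7.74% and 9.39% had a lower ratio. Of the 3 other tested protein-coding genes within 20000 bp of the cluster, 0 had their lowest value in tryptophan library 1, against 34.5% of all tested genes. Among those 3 is Y54G11A.7, which overlaps ctl-2. Among the markers listed above, the pharyngeal muscle myosin myo-2 had 2.77, 53.04 and 29.1 FPKM in tryptophan libraries 1 to 3 and 25.9, 37.5 and 15.03 FPKM in control libraries 1 to 3, so it was lowest in the same library as the catalases. Of those 10 markers 8 were lowest and 1 was highest in that library. The highest was ges-1, a gut marker, at 37.1 FPKM against 19.2 to 31.6 FPKM in the other 5. The part that these markers and transcript length play in the catalase values was not tested.

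The share of ctl-1 in the summed catalase FPKM was 2.29%, 15.5% and 10.96% in tryptophan libraries 1 to 3, against 21.4%, 17.0% and 20.4% in control libraries 1 to 3. Each tryptophan library was below each control library, and tryptophan library 1 was the lowest, at about 8.0 counted units of ctl-1. The level of ctl-1 itself overlapped between the groups on TPM. Shares were not tested, and no background over all genes was worked out for them. ctl-2 made up 70.8%, 59.1% and 63.4% with tryptophan and 47.4%, 62.1% and 69.9% in controls, and the groups overlapped. For ctl-3 the share was 25.3% to 26.9% with tryptophan and 9.69% to 31.2% in controls. The ratio of summed superoxide dismutase FPKM to summed catalase FPKM was 45.5, 4.46 and 5.31 in tryptophan libraries 1 to 3 and 7.97, 5.659 and 7.59 in control libraries 1 to 3. The 2 tryptophan libraries other than library 1 had the lowest ratios, though 5.31 and 5.659 are close, and library 1 had the highest. The sod transcripts are 706 to 1031 bp long and those of the catalases 1554 to 1631 bp. For 600 to 1099 bp and 1500 to 1699 bp, the median TPM ratio to the other 5 libraries was 1.17 and 0.554 in tryptophan library 1. It was 0.896 and 1.13 in tryptophan library 2, and 1.18 and 1.27 in tryptophan library 3. Neither the ratio of the classes nor the part of length in it was tested.

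**Figure D3:**
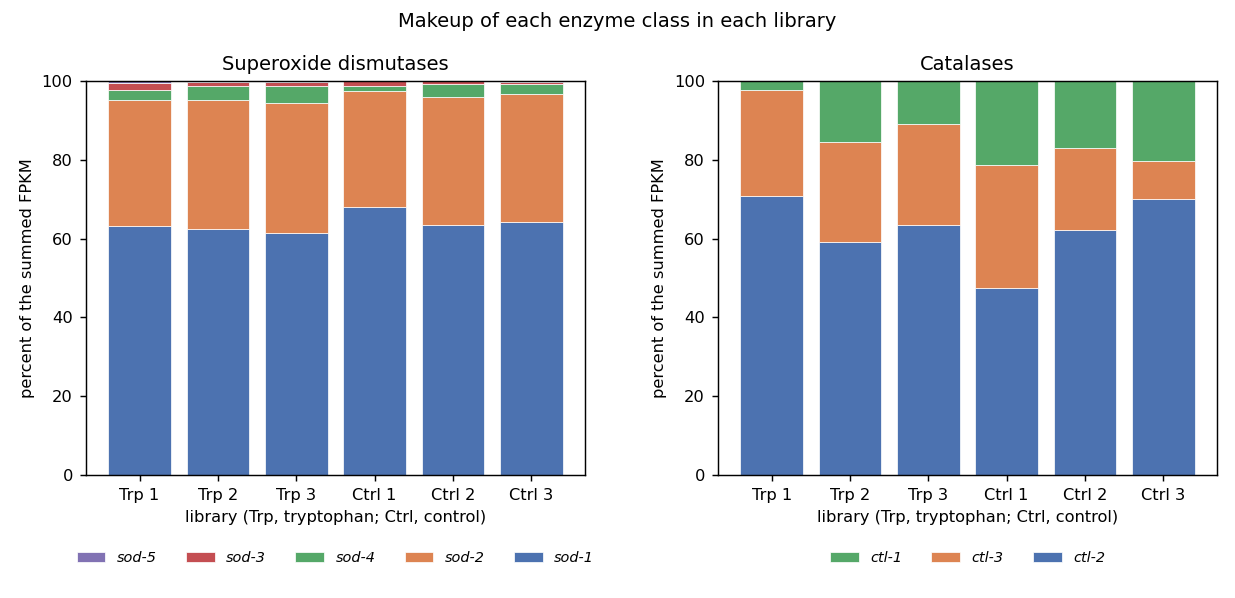
Percent of the summed FPKM of the 5 superoxide dismutases (left) and of the 3 catalases (right) that each gene made up in each tryptophan (Trp) and control (Ctrl) library. The sod-1 and sod-2 shares differ little between libraries, while ctl-1 ranges from 2.29% to 15.5% in tryptophan libraries and from 17.0% to 21.4% in controls. The shares were not tested.

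With libraries 2 and 3 of each group alone, a choice made with the values known, no member passed either. limma called 34 genes higher and 34 lower (0.503% of genes tested), among them 0 of the 8 members, with adjusted p from 0.321 to 0.984. At an unadjusted p under 0.05 there were 2 members, sod-1 and sod-2, against 14% of all tested genes. sod-1 had a log2 fold change of -0.50 (SE 0.20, interval -0.96 to -0.05, limma adjusted p = 0.321) and sod-2 of -0.45 (SE 0.19, interval -0.89 to -0.0068, limma adjusted p = 0.352). On TPM the values were -0.27 for sod-1 and -0.21 for sod-2, with intervals that include 0, and the median over all tested genes was 0.19 on TPM and -0.02 on FPKM. The groups did not overlap in the lower direction for sod-1, sod-2, ctl-1 and ctl-2, as for 25% of all genes, and in the higher direction for sod-3, as for 21.4%. Some tissue and stage markers differed between these same libraries. On FPKM 26 of 30 sperm genes (median log2 fold change -0.56) and 22 of 26 collagens (median -0.59) were lower without overlap, and the 6 yolk genes were all positive (median 1.104). Of 17 oocyte genes 6 were positive (median -0.11), and 0 were higher or lower without overlap. Of the 10 markers of muscle, gut, neurons, epidermis and germline 5 were positive (median 0.05), with 2 higher and 3 lower without overlap. The part these markers play in the values of the members was not tested. On TPM, sod-1 and sod-2 were lower without overlap (11.9% of all genes) and sod-3 and ctl-3 higher without overlap (39.7%), and limma called 24 genes higher and 14 lower (0.281% of genes tested), with 0 members among them and 0 members at an unadjusted p under 0.05, against 17.3% of all genes. In libraries 2 and 3 on FPKM, ctl-3 had a log2 fold change of 0.73 (SE 0.37, interval -0.13 to 1.59) and sod-3 one of 0.31 (SE 0.21, interval -0.17 to 0.79), with limma adjusted p of 0.421 and 0.518. prdx-2 (-0.14), ctl-2 (-0.14) and sod-4 (-0.017) lay near 0, with intervals of -0.64 to 0.36, -0.58 to 0.31 and -0.52 to 0.48.

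**Figure D4:**
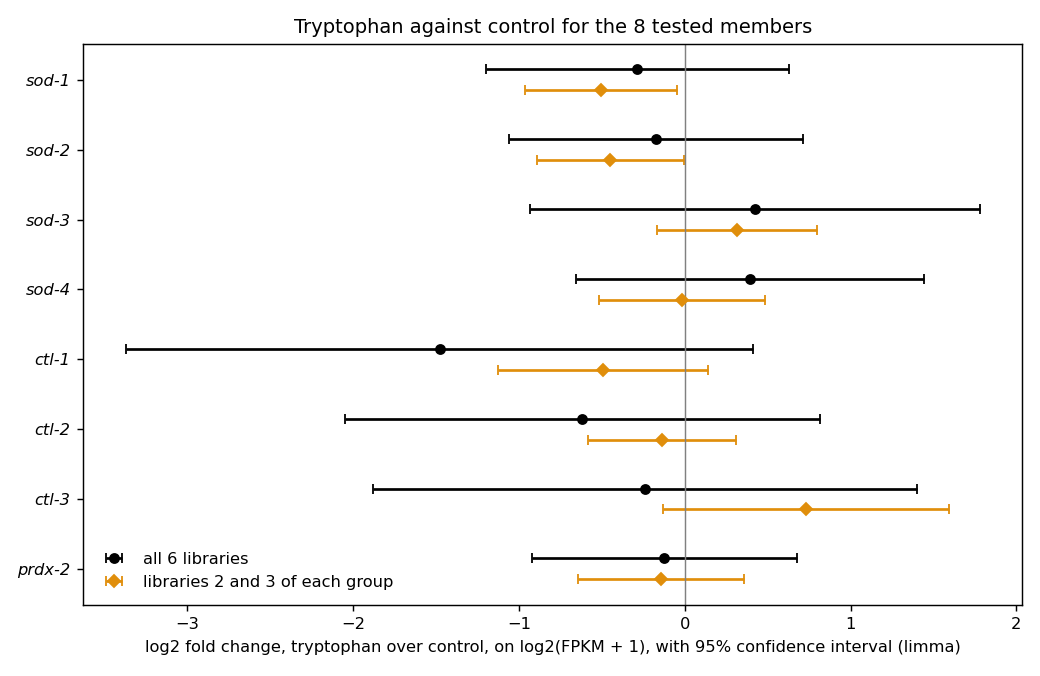
log2 fold change of tryptophan over control with its 95% confidence interval (limma, log2(FPKM + 1)) for the 8 tested members, over all 6 libraries (black) and over libraries 2 and 3 of each group (orange). Intervals over all 6 libraries include 0 for every member, and over libraries 2 and 3 those of sod-1 (-0.96 to -0.05) and sod-2 (-0.89 to -0.0068) do not, before adjustment.

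Partners of these enzymes were read from lists drawn up by function. In each list 0 tested genes were called higher or lower in limma over all 6 libraries, and 0 in libraries 2 and 3. Of 16 listed genes of the thioredoxin and glutaredoxin systems 14 passed the minimum. These include the peroxiredoxins prdx-3 and prdx-6, and genes whose products pass on electrons or repair oxidised protein. Of the 14, 6 lay above 0 and 8 below on the log2 scale of tryptophan over control (median -0.08), with 0 at an unadjusted p under 0.05. The smallest p were those of trx-3, a thioredoxin (29.3 ± 16.9 FPKM with tryptophan and 15.8 ± 13.03 FPKM in controls, limma adjusted p = 0.802), and trx-4 (46.8 ± 9.99 FPKM with tryptophan and 65.3 ± 13.3 FPKM in controls; SD, n = 3 each). The mitochondrial peroxiredoxin prdx-3 had 368.4, 241.4 and 266.3 FPKM with tryptophan and 271.9, 261.6 and 312.4 FPKM in controls, a log2 fold change of 0.03 (SE 0.34).

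Glutathione peroxidases and the enzymes that make and recycle glutathione had 6 positive and 3 negative values among 9 tested of 11 listed genes (median 0.06). gpx-1, a glutathione peroxidase, had 99.3, 50.8 and 62.7 FPKM in tryptophan libraries 1 to 3, against 27.5, 39.0 and 49.9 FPKM in control libraries 1 to 3. The groups did not overlap, as was so in the higher direction for 3.98% of all tested genes. Its log2 fold change was 0.84 (SE 0.43, limma adjusted p = 0.802), and 0.35 in libraries 2 and 3. gpx-7, of the same family, had 51.3, 9.14 and 11.7 FPKM in tryptophan libraries 1 to 3 and 7.22, 13.2 and 17.7 FPKM in control libraries 1 to 3. Over all libraries gpx-7 had a log2 fold change of 0.54 (SE 0.70) and, without tryptophan library 1, -0.20.

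Genes whose products make hydrogen peroxide, among them dual oxidases and peroxisomal acyl-CoA oxidases, were listed with haem peroxidases, which use it. They had 11 positive and 9 negative values among 20 tested of 22 listed (median 0.08). The acyl-CoA oxidases acox-1.5 (49.6 ± 6.85 FPKM with tryptophan and 31.4 ± 13.3 FPKM in controls) and acox-1.6 (17.7 ± 3.88 FPKM with tryptophan and 12.5 ± 7.96 FPKM in controls; SD, n = 3 each) had the smallest p, with limma adjusted p = 0.802 for both. Peroxisome assembly genes, which bring catalase into the organelle, had 6 positive and 5 negative values among 11 tested (median 0.04). Of these 11, 3 were higher without overlap, against 3.98% of all tested genes, including prx-6 (9.17, 5.46 and 5.86 FPKM with tryptophan, 2.73, 4.22 and 4.83 FPKM in controls) and prx-3 (15.6, 9.81 and 12.2 FPKM with tryptophan, 5.25, 8.10 and 9.80 FPKM in controls). Their log2 fold changes were 0.66 (SE 0.42) and 0.65 (SE 0.43), and 0.27 each in libraries 2 and 3.

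Regulators of antioxidant genes were mostly lowest in tryptophan library 1. Among 21 tested genes, which include insulin signalling, the p38 kinase pathway and the transcription factors DAF-16, SKN-1, HSF-1 and PQM-1, 18 lay below 0 on the log2 scale (median -0.47). In tryptophan library 1, 17 had their lowest value, against 34.5% of all tested genes. In libraries 2 and 3, 19 of the 21 were positive (median 0.20), as were 47.3% of all genes tested. Of the 21, 16 have transcripts of 1700 bp or more, as do 4435 of all 13511 genes tested. hsf-1, which encodes the heat shock factor, had 6.84, 23.2 and 18.1 FPKM in tryptophan libraries 1 to 3 and 61.1, 20.5 and 17.6 FPKM in control libraries 1 to 3. Tryptophan library 1 was the lowest of the 6 and control library 1 the highest, and tryptophan over control came to -0.93 on the log2 scale (SE 0.65, limma adjusted p = 0.802). daf-16, whose product activates sod-3 when insulin signalling is low, had 4.59, 32.2 and 25.6 FPKM in tryptophan libraries 1 to 3 and 44.9, 23.9 and 16.7 FPKM in control libraries 1 to 3.

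Other genes known as DAF-16 targets had 10 positive and 4 negative values among 14 tested (median 0.42), and 4 positive in libraries 2 and 3 (median -0.10). For 8 of the 14 the highest value was in tryptophan library 1, against 36.3% of all tested genes. The highest value of sod-3 was also there. On FPKM none of the 14 was higher without overlap and 3 were lower without overlap, against 4.32% of all tested genes. They are fat-5, lea-1 and gpd-2, of which lea-1 (62.9 to 91.2 FPKM with tryptophan and 107.5 to 117.8 FPKM in controls) and gpd-2 (178.9 to 240.8 FPKM with tryptophan and 263.9 to 366.5 FPKM in controls) were singled out after their values were seen. After rescaling to TPM the groups overlapped for lea-1 and gpd-2, and only fat-5 stayed lower without overlap. fat-5, a fatty acid desaturase, had 5.38, 10.8 and 7.97 FPKM with tryptophan and 18.5, 19.6 and 13.1 FPKM in controls (log2 fold change -1.02, SE 0.43, limma adjusted p = 0.802). ftn-1, a ferritin that stores iron, had 7.61, 1.76 and 3.09 FPKM with tryptophan and 0.205, 1.48 and 2.43 FPKM in controls (log2 fold change 1.08, SE 0.58).

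**Figure D5:**
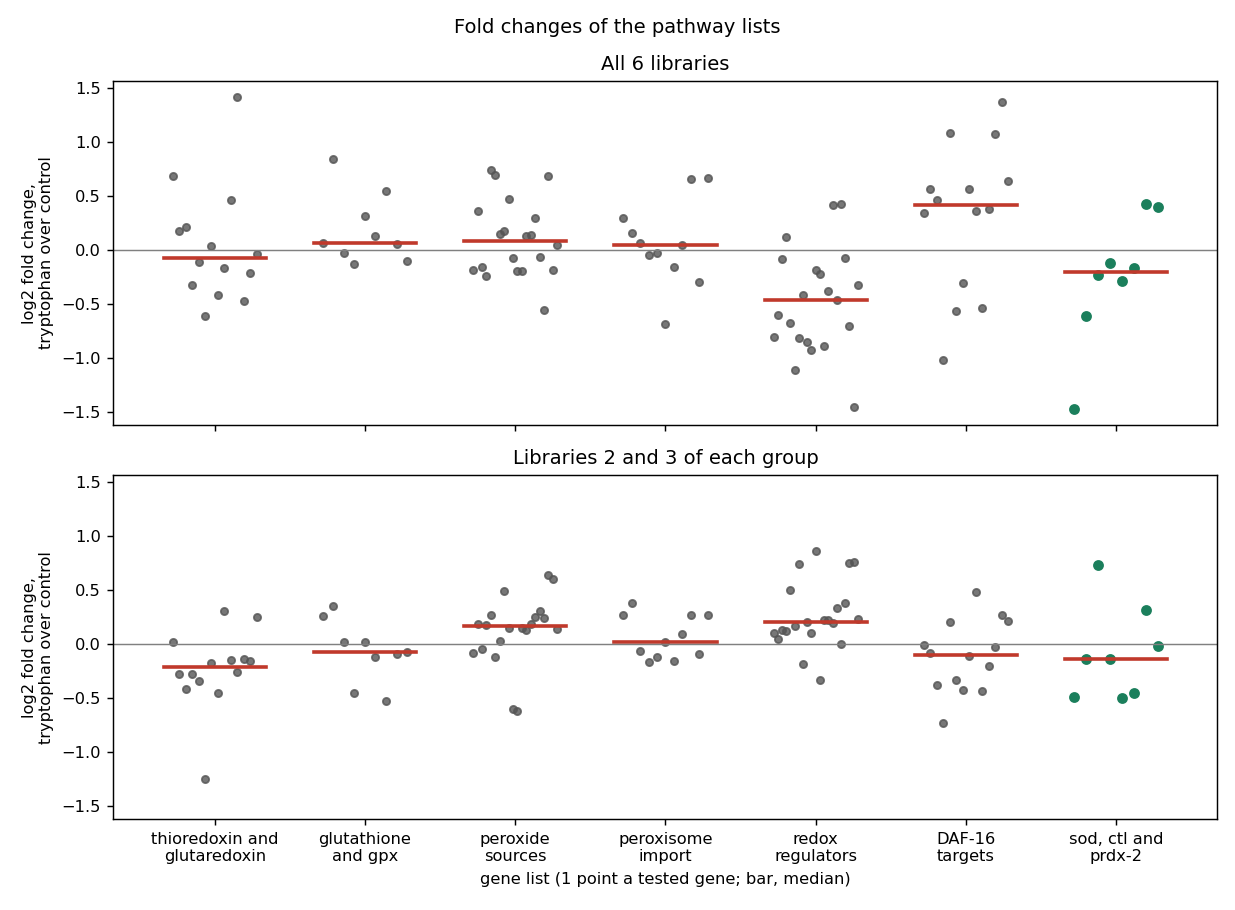
log2 fold change of tryptophan over control for each tested gene of 6 pathway lists (grey) and of the 8 tested members (green), with the list's median as a red bar, over all 6 libraries (top) and over libraries 2 and 3 of each group (bottom). The regulators have a median of -0.47 at the top and 0.20 at the bottom, and the members -0.21 and -0.14.

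The tested protein-coding genes whose profile over the 6 libraries was most like that of each class are given as a description, since library 1 of each group held the extremes for most genes. For the summed superoxide dismutases these were ndub-2 and ndub-6, subunits of respiratory complex I, and Y38F2AR.3, with Pearson's r of 0.996, 0.995 and 0.994. ndub-2 had 291.5, 108.6 and 98.7 FPKM in tryptophan libraries 1 to 3 and 219.3, 170.3 and 189.9 FPKM in control libraries 1 to 3, the same order of libraries as the summed enzymes. For the summed catalases they were alh-4, an aldehyde dehydrogenase, tnt-2, a troponin T of muscle, and aldo-1, an aldolase, with r of 0.996, 0.994 and 0.993. The order of libraries matched less closely for these, with a rank correlation (Spearman's rho) of 0.829 each, and all were lowest in tryptophan library 1. For prdx-2 they were ZK643.5, M03C11.6 and dpm-3, with r of 0.997, 0.997 and 0.996. Likeness of this degree was common, with r above 0.95 for 246, 345 and 370 genes.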

How the data were processed

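FPKM values, 1 table for each of the 6 libraries, are as the authors deposited them. The submitters' processing notes name Bowtie 0.12.2, StringTie and the build WBcel235. Per the labels' protocols, Trizol RNA went into TruSeq libraries. Annotation release, filters and strand setting: not given in the sources used here. Of 46589 identifiers 46183 matched the WBcel235 annotation of Ensembl release 115, which gave names, coordinates (1-based) and transcript lengths. Depth was estimated from steps between low values times transcript length, at 17.5, 20.6 and 24.99 M (mega) counted units, reads or read pairs, in tryptophan libraries 1 to 3 and 14.6, 21.4 and 19.9 M in control libraries 1 to 3. Only 65.9% to 69.3% of low values were near a whole multiple (tolerance 0.2), so no counts were rebuilt and no count model was used.

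Values were analysed as log2(FPKM + 1) with a minimum mean of 1 FPKM in limma 3.58.1 (R 4.3.3), with group as the factor, all 6 libraries and a trended eBayes prior. Tests were two-sided, p-values were adjusted after Benjamini and Hochberg across 13511 genes, and 0.05 was the limit for a call. For 3 libraries against 3, no exact permutation p falls under 0.10, so none is given. TPM is FPKM rescaled here to one sum per library. Software for tables and plots was Python 3.11.15 with pandas 2.3.3 and matplotlib 3.10.9. The fits were run on simulated data with independent noise, a smaller spread than these libraries and no outlying library. That run checks the code and not the power of the test in these data.

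The members and lists were chosen with earlier results of these data known. Named were all 9 members, the 2 genes of smallest p in each list (where 0 passed), and the 3 genes most alike to each class; prdx-3, daf-16 and myo-2 were added after their values were seen. For 1 list gene the values are not reported here. In the list of DAF-16 targets 15 of 16 names were found. As alternatives the pseudocount was 0.1 or 0.5, the minimum was dropped or set to 5 FPKM, values were rescaled by medians, by quantiles or to TPM, the prior was robust or untrended, replicate number entered as a block, and each library was left out in turn. Libraries 2 and 3 of each group alone, on FPKM and on TPM, were added with the values known.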

Additional observations from a re-analysis of the deposited data

How the results depend on the processing

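All of the 16 alternatives with at least 5 libraries left 0 members and 0 genes called in limma. Libraries 2 and 3 alone gave 34 genes higher and 34 lower, or 24 and 14 on TPM, with 0 members or list genes among them, and the cause was not tested. sod-1, sod-2 and ctl-1 kept a negative log2 fold change in all 18 alternatives. Among these, a changed minimum, a changed prior and the replicate block left the estimates as they were and could not turn a sign. Leaving out each library in turn gave -0.60 to -0.11 for sod-1, -0.46 to -0.016 for sod-2, -2.13 to -0.53 for ctl-1, -0.999 to 0.045 for ctl-2, -0.70 to 0.41 for ctl-3, -0.29 to 0.022 for prdx-2, -0.070 to 0.81 for sod-3 and 0.077 to 0.62 for sod-4. In libraries 2 and 3 the sign turned for sod-4 (-0.017), ctl-3 (0.73, and 0.97 on TPM), trx-3 (-0.26, and -0.030 on TPM), gpx-7 (-0.52, and -0.31 on TPM), acox-1.6 (-0.12) and hsf-1 (0.11, and 0.34 on TPM). On TPM there it also turned for ctl-2 (0.094), prdx-2 (0.095) and trx-4 (0.094). Quantile normalization gave 0.086 for prdx-2, and leaving out each library gave -0.20 to 0.99 for gpx-7. sod-3 could not be tested at a minimum of 5 FPKM, nor sod-5 with any minimum. Deviations from the group mean correlated between groups at -0.37, -0.30 and -0.34 for replicate numbers 1 to 3. With 3 libraries per group, of which library 1 stood apart in each, this cannot settle whether the numbers pair the libraries. A replicate block left 0 genes and 0 members called, with limma adjusted p of 0.888 to 0.946 for the members. sod-5 is limited by depth, at about 3.17 to 36.3 counted units.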

Other observations

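The genes below were picked after their values were seen. In the thioredoxin list msra-1, a methionine sulfoxide reductase that repairs oxidised protein, had 300.4, 123.03 and 73.9 FPKM in tryptophan libraries 1 to 3 and 187.6, 192.5 and 271.6 FPKM in control libraries 1 to 3. Its log2 fold change was -0.61 (SE 0.55) over all libraries and -1.25 (SE 0.29, limma adjusted p = 0.149) in libraries 2 and 3, or -1.02 on TPM (limma adjusted p = 0.184). The glutaredoxin glrx-10, with a transcript of 414 bp, stood at 767.9 FPKM in tryptophan library 1 and at 184.6 to 244.9 FPKM in the other 5 libraries. smk-1, a cofactor of DAF-16 with a transcript of 4024 bp, had 0.415 FPKM in tryptophan library 1 and 21.5 to 82.4 FPKM in the other 5. Its log2 fold change was -1.46 (SE 1.35) over all libraries and 0.75 (SE 0.26, limma adjusted p = 0.289) in libraries 2 and 3.

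Levels also differed with transcript length in some of libraries 2 and 3, while control library 2 was flat. For transcripts under 600 bp and of 4000 bp or more, the median ratio of a library to the other 5 on TPM was 0.793 and 1.72 in tryptophan library 2, 1.03 and 1.44 in tryptophan library 3, 1.02 and 0.991 in control library 2, and 1.08 and 0.561 in control library 3.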
